A study of Homo sapiens with 6 samples.

Results

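The 47 genes described here carry cells through mitosis, and they include FOXM1 and MYBL2, the transcription factors that switch many of the others on. All probe sets whose annotation gives 1 gene symbol, and whose symbol is one of these genes, were taken, which gave 74 of the 22283 probe sets of the array. All 47 genes had at least 1 probe set above the filter on dim signals, so all 47 stood among the 8045 genes tested. The genes were measured in total RNA of HT1080, a line established from a human fibrosarcoma. The 6 single-channel arrays fell into 3 groups of 2. One group carried the pGUS vector expressing GFP and an siRNA against MT1-MMP, the membrane-anchored collagenase encoded by MMP14. The second carried the same vector with GFP and an siRNA against integrin alpha3, a laminin receptor subunit encoded by ITGA3. The third, called mock and titled GUS, carried the vector with GFP only, so GFP and the vector were common to all groups. The labels name no clone, sort or time after transfection. They leave unsaid whether each array had a culture of its own, so the p-values here reflect array-to-array spread alone, and that spread may be technical.

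As background, entry into mitosis is driven by CDK1 bound to cyclin B, with CDC25 phosphatases removing the inhibitory phosphates of CDK1 and WEE1 adding them. The genes of the late cell cycle are repressed in resting cells by the DREAM complex, in which the MuvB core is joined to RBL2 and E2F4. In cycling cells MuvB binds MYBL2 in S phase and then FOXM1 in G2, and activates the same promoters. Their transcripts are therefore abundant in dividing cells and low in resting ones, and they are widely used as a measure of proliferation.

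The arrays had been scaled to the same mean before deposit, and their median signals lay between 72.9 and 83.1. Each target was lowest where it was targeted. MMP14 had 812 and 717 with MT1-MMP siRNA, 999 and 1804 under alpha3 siRNA, and 1971 and 3064 in mock cells. ITGA3 had 1481 and 1634 with MT1-MMP siRNA, 148 and 347 under alpha3 siRNA, and 1138 and 1290 in mock cells. All 5 mesenchymal markers passed the filter, from S100A4, at 22.8 to 89.7 and under the filter level on 2 arrays, to VIM, at 12270 to 17700. The sum of the 5 ran from 38486.5 to 48438.5 with MT1-MMP siRNA, 27741.8 to 29645.3 under alpha3 siRNA and 27866.3 to 33942.7 in mock cells. FN1, fibronectin, had 12630 and 9354 with MT1-MMP siRNA, 5237 and 1882 under alpha3 siRNA, and 1869 and 5529 in mock cells, so its MT1-MMP siRNA arrays lay above the other 4. None of the 4 epithelial markers passed the filter, with sums of 35.8 to 40 with MT1-MMP siRNA, 22.6 to 35.4 under alpha3 siRNA and 45.7 to 53.1 in mock cells. The 3 leukocyte markers summed to 116.2 to 129.8 with MT1-MMP siRNA, 90.4 to 132.7 under alpha3 siRNA and 109.5 to 110.4 in mock cells, and 1 of the 3 passed the filter. The 4 endothelial markers summed to 117.8 to 155.5 with MT1-MMP siRNA, 99.6 to 180.1 under alpha3 siRNA and 109.7 to 169.6 in mock cells, and 1 of the 4 passed. The leukocyte marker that passed was CD3E, at 61.5 to 107.4, and PTPRC and CD14 reached 21.9 and 25.2 at most. The endothelial marker that passed was PECAM1, at 48.6 to 108.2, and CDH5, VWF and TEK reached 9.4, 27.8 and 52.6 at most. The 18 spiked hybridisation controls stood, at the median, 2.30 and 1.29 times the mock level with MT1-MMP siRNA, 0.812 and 0.841 times under alpha3 siRNA, and 0.927 and 1.07 times in mock cells. The part of these controls and marker sums in the results was not tested.

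With MT1-MMP siRNA against mock, the mitosis genes lay lower as a group. Their median log2 fold change was -0.54 over 47 genes, on the scale log2(signal + 32), which understates changes of dim genes, against 0.0024 over the 8045 genes tested. The fold change was below 0 for 46 of the 47, against 49.7% of all genes. None passed an adjusted p of 0.05 in limma (0 of 47, and 0% of all genes in either direction). At an unadjusted p under 0.05, 23 of the 47 were lower (48.9%), against 7.66% of all genes, and 0 were higher, against 6.76%. Both MT1-MMP siRNA arrays lay below both mock arrays for 34 of the 47 genes, against 25.3% of all genes, and above both for 0, against 24.6%. The members and the comparison were chosen with earlier results of these data known, so these counts are a description.

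**Figure D1:**
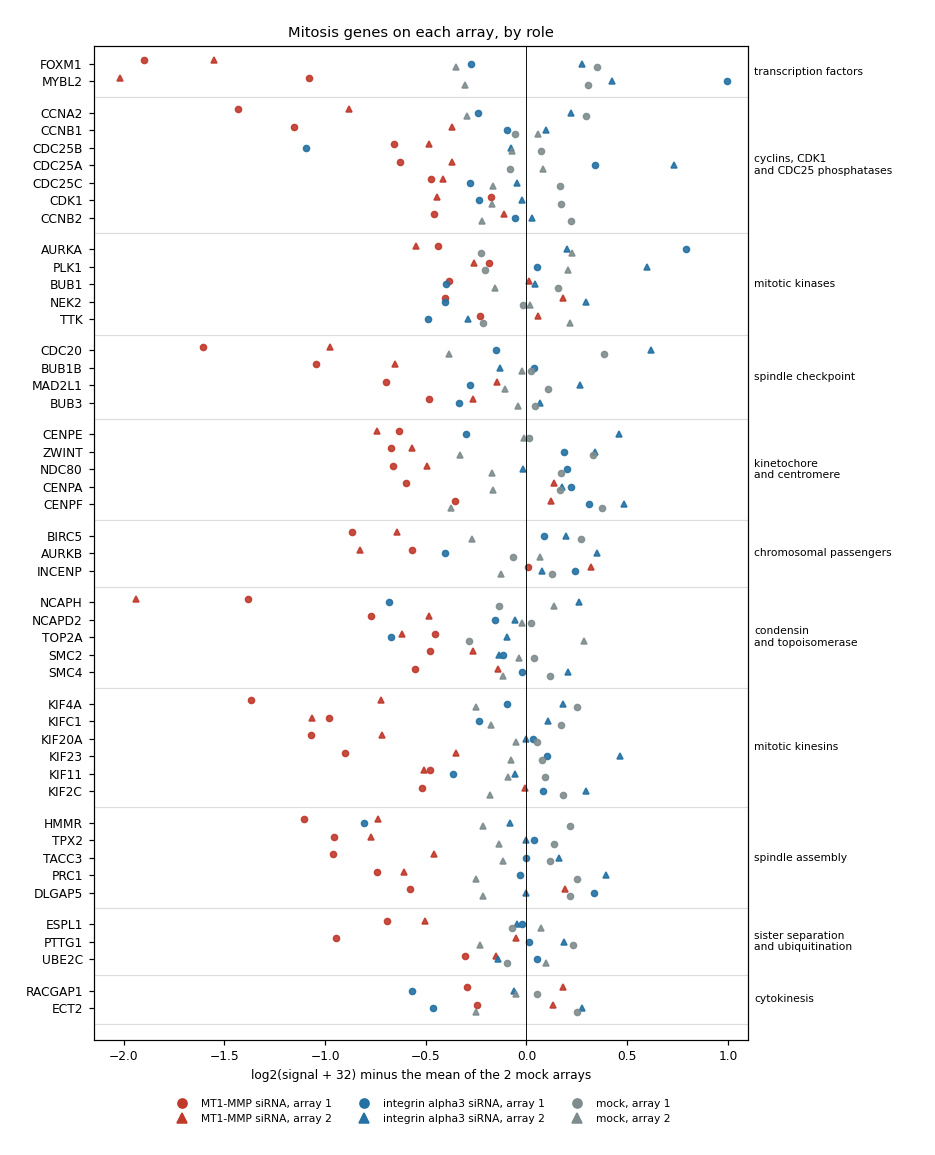
Each mitosis gene on each array, grouped by role, as log2(signal + 32) minus the mean of the 2 mock arrays. Red marks MT1-MMP siRNA, blue alpha3 siRNA and grey mock, with a circle for array 1 and a triangle for array 2. The red points lie left of both grey points for 34 of the 47 genes, farthest for FOXM1, MYBL2 and NCAPH, and mix with the grey ones for TTK, RACGAP1 and ECT2.

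The transcription factors showed the widest separation. FOXM1, a forkhead activator of G2 and mitosis genes, had signals of 206 and 270 with MT1-MMP siRNA, 700 and 1041 under alpha3 siRNA, and 1096 and 662 in mock cells. Both MT1-MMP siRNA arrays lay below the other 4, and the alpha3 siRNA and mock arrays overlapped. Its log2 fold change with MT1-MMP siRNA against mock was -1.73 (SE 0.29, 95% interval -2.39 to -1.06, limma adjusted p = 0.134), the 4th lowest of 8045 genes. Between the siRNAs, FOXM1 fell by 1.73 with MT1-MMP siRNA relative to alpha3 siRNA (SE 0.29, adjusted p = 0.0355).

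MYBL2, the B-MYB activator that joins MuvB, had 95.4 and 34.5 with MT1-MMP siRNA, 506 and 330 under alpha3 siRNA, and 302 and 186 in mock cells. All 3 groups were separate for MYBL2, with MT1-MMP siRNA lowest and alpha3 siRNA highest. The log2 fold change was -1.55 with MT1-MMP siRNA against mock (SE 0.36, adjusted p = 0.164) and 0.71 with alpha3 siRNA against mock (SE 0.36, 95% interval -0.11 to 1.53, adjusted p = 0.863). MYBL2 fell by 2.26 with MT1-MMP siRNA relative to alpha3 siRNA (SE 0.36, adjusted p = 0.0312), the 7th lowest of all genes. Its second MT1-MMP siRNA signal, 34.5, lies under the filter level of 47.5, so the size of its change depends on the offset. With offsets of 1 and 100 it was -2.02 and -1.06 against mock, and -2.81 and -1.65 between the siRNAs. FOXM1 and MYBL2 were the only 2 of the 47 that passed the threshold in this contrast (2 of 47 lower, against 0.572% of all genes, and 0 higher, against 0.82%). Each call was lost on leaving out any 1 of the 4 arrays compared. FOXM1 then lay between -2.0 and -1.45 with adjusted p-values from 0.0531 (without alpha3 siRNA replicate 1) to 0.252 (without MT1-MMP siRNA replicate 1), and MYBL2 between -2.73 and -1.79 with adjusted p-values from 0.0719 (without MT1-MMP siRNA replicate 2) to 0.112 (without MT1-MMP siRNA replicate 1). Both were also lost with no filter on dim probe sets (adjusted p = 0.0662 for each), and FOXM1 narrowly without the intensity trend (adjusted p = 0.0502).

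**Figure D2:**
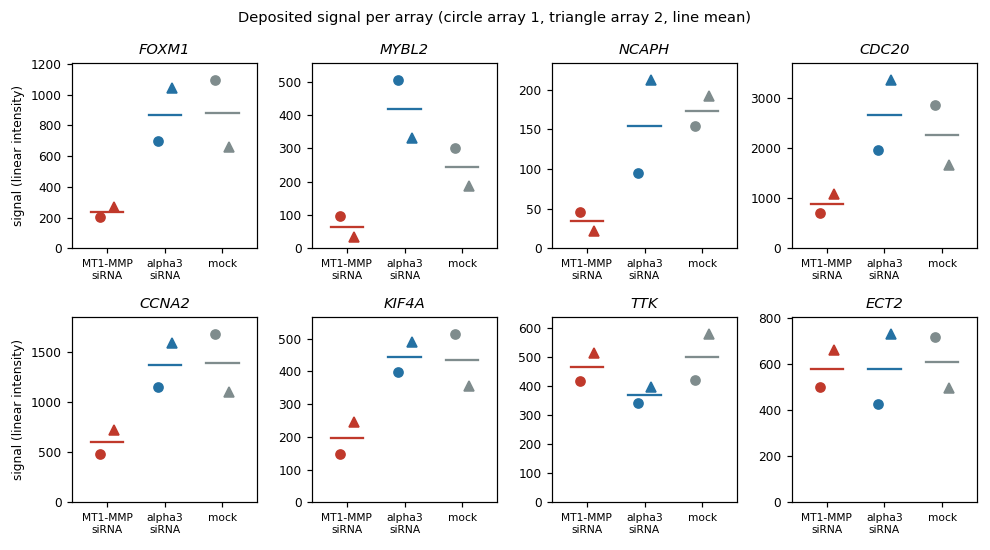
Deposited linear signal on each array for 8 genes, with a circle for array 1, a triangle for array 2 and a line for the mean, and the vertical axes starting at 0. For FOXM1, MYBL2, NCAPH, CDC20, CCNA2 and KIF4A both MT1-MMP siRNA arrays lie below the other 4, while for ECT2 the 3 groups overlap and for TTK the alpha3 siRNA arrays are the lowest.

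Among condensin subunits and topoisomerase, which compact and untangle the chromosomes, all 5 genes lay below both mock arrays with MT1-MMP siRNA, against 25.3% of all genes. NCAPH, a regulatory subunit of condensin I, had 46.3 and 21.2 with MT1-MMP siRNA, 95.1 and 212 under alpha3 siRNA, and 154 and 192 in mock cells. Its log2 fold change with MT1-MMP siRNA against mock was -1.66 (SE 0.34, adjusted p = 0.161), the 7th lowest of all genes. Both of these MT1-MMP siRNA signals lie under the filter level of 47.5, so NCAPH passed the filter through the other groups. The size of its fold change depends on the offset (-2.41 with an offset of 1 in place of 32, and -1.03 with 100). NCAPD2, another subunit of condensin I, was at -0.63 and TOP2A, the DNA-untangling topoisomerase, at -0.54. The core subunits SMC2 (-0.37) and SMC4 (-0.35) lay nearest 0 in the role. SMC4 had 1435 and 1922 with MT1-MMP siRNA, 2087 and 2452 under alpha3 siRNA, and 2305 and 1955 in mock cells, so its second MT1-MMP siRNA array lay just under the lower mock array. SMC2 depended on the probe set: 425 and 497 with MT1-MMP siRNA, 556 and 546 under alpha3 siRNA and 620 and 589 in mock cells on the brighter one, and a log2 fold change of 0.39 against mock on the dimmer one.

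Of the cyclins, CDK1 and the CDC25 phosphatases, all 7 were below 0. At an unadjusted p under 0.05, 2 were lower, against 7.66% of all genes. CCNA2, cyclin A2, which acts in S phase and G2, had 483 and 725 with MT1-MMP siRNA, 1147 and 1593 under alpha3 siRNA, and 1679 and 1102 in mock cells (log2 fold change against mock -1.16, SE 0.28, adjusted p = 0.176). Cyclin B1 (CCNB1) was at -0.76, with 874 and 1525 with MT1-MMP siRNA, 1852 and 2123 under alpha3 siRNA, and 1904 and 2064 in mock cells. Cyclin B2 had a smaller fold change, and whether it differs from these was not tested. CCNB2 had 810 and 1042 with MT1-MMP siRNA, 1080 and 1150 under alpha3 siRNA, and 1318 and 963 in mock cells (-0.29, 95% interval -0.78 to 0.21, adjusted p = 0.584), so the MT1-MMP siRNA and mock arrays overlapped. CDK1, the kinase they activate, had 1093 and 901 with MT1-MMP siRNA, 1045 and 1219 under alpha3 siRNA, and 1398 and 1096 in mock cells (-0.31, adjusted p = 0.520). One of its 3 probe sets lay at 0.039. CDC25C had 119 and 125 with MT1-MMP siRNA, 141 and 171 under alpha3 siRNA, and 204 and 155 in mock cells, below 0 against mock on both probe sets above the filter (-0.45 and -0.097) and of opposite sign on them against alpha3 siRNA (-0.28 and 0.33). CDC25A and CDC25B were at -0.50 and -0.57 against mock.

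The spindle checkpoint holds back anaphase until chromosomes are attached. The genes placed in this role, CDC20 among them, lay below both mock arrays in 4 of 4 cases, against 25.3% of all genes. BUB1 and TTK, which also act in the checkpoint, were placed with the mitotic kinases. For these kinases the MT1-MMP siRNA and mock arrays overlapped, with log2 fold changes of -0.19 and -0.086. CDC20, the activator of the anaphase-promoting complex that the checkpoint inhibits, had 696 and 1092 with MT1-MMP siRNA, 1960 and 3370 under alpha3 siRNA, and 2862 and 1660 in mock cells (log2 fold change against mock -1.29, SE 0.35, adjusted p = 0.195). The mock arrays themselves differed widely, but the MT1-MMP siRNA arrays stayed below both. The checkpoint kinase-like protein BUB1B was at -0.85 and MAD2L1 at -0.42. BUB3 had 2245 and 2610 with MT1-MMP siRNA, 2488 and 3296 under alpha3 siRNA, and 3244 and 3053 in mock cells (-0.37, adjusted p = 0.401), and its 4 probe sets ran from -0.37 to 0.12.

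All 6 mitotic kinesins, the motors that build the spindle and move chromosomes, were below 0. At an unadjusted p under 0.05, 5 were lower, against 7.66% of all genes. KIF4A, which binds chromosome arms and the central spindle, had 146 and 247 with MT1-MMP siRNA, 398 and 489 under alpha3 siRNA, and 514 and 355 in mock cells (-1.04, SE 0.28, adjusted p = 0.191). KIF4A has the close copy KIF4B, which the probe set may not tell apart. KIFC1 (-1.02), KIF20A (-0.89), KIF23 (-0.63) and KIF11 (-0.49) followed. KIF2C, which takes microtubules apart at kinetochores, had 498 and 725 with MT1-MMP siRNA, 772 and 900 under alpha3 siRNA, and 830 and 637 in mock cells (-0.26, adjusted p = 0.650), with the MT1-MMP siRNA and mock arrays overlapping.

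Among the spindle assembly genes, HMMR, a hyaluronan-binding protein that also sits on spindle microtubules, had 382 and 504 with MT1-MMP siRNA, 478 and 810 under alpha3 siRNA, and 1003 and 737 in mock cells (-0.92, SE 0.28, adjusted p = 0.22). One alpha3 siRNA array lay between the MT1-MMP siRNA arrays, so HMMR separated MT1-MMP siRNA from mock but not from alpha3 siRNA. TPX2, the activator of Aurora A, was at -0.86, TACC3 at -0.71 and PRC1 at -0.68. DLGAP5, another spindle protein, had 382 and 673 with MT1-MMP siRNA, 747 and 586 under alpha3 siRNA, and 685 and 501 in mock cells (-0.19, adjusted p = 0.796), and its sign turned without MT1-MMP siRNA replicate 1 (0.19).

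At kinetochores and centromeres, 3 of 5 genes were lower at an unadjusted p under 0.05, against 7.66% of all genes. CENPE, a kinetochore motor, had 240 and 220 with MT1-MMP siRNA, 310 and 548 under alpha3 siRNA, and 393 and 386 in mock cells (-0.69, SE 0.26, adjusted p = 0.289). ZWINT was at -0.62 and NDC80, of the microtubule-binding outer kinetochore, at -0.58. CENPA, the centromeric histone, was at -0.23. CENPF had 376 and 534 with MT1-MMP siRNA, 614 and 696 under alpha3 siRNA, and 643 and 370 in mock cells (-0.12, 95% interval -0.76 to 0.53, adjusted p = 0.883), so the mock arrays alone spanned the MT1-MMP siRNA arrays.

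The chromosomal passenger genes differed among themselves. BIRC5, survivin, had 592 and 695 with MT1-MMP siRNA, 1177 and 1269 under alpha3 siRNA, and 1337 and 911 in mock cells (-0.76, SE 0.22, adjusted p = 0.215), and its 3 probe sets lay between -1.07 and -0.56. AURKB, the kinase of the same complex, was at -0.70. INCENP, its scaffold, was the only one of the 47 genes above 0, with 95.4 and 126 with MT1-MMP siRNA, 118 and 102 under alpha3 siRNA, and 106 and 84.1 in mock cells (0.16, 95% interval -0.36 to 0.68, adjusted p = 0.779). The 3 groups overlapped for INCENP.

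For sister separation, ESPL1, the protease separase, had 263 and 305 with MT1-MMP siRNA, 439 and 430 under alpha3 siRNA, and 423 and 471 in mock cells (-0.60, SE 0.19, adjusted p = 0.226). UBE2C, the ubiquitin-conjugating enzyme of the anaphase-promoting complex, had 1829 and 2040 with MT1-MMP siRNA, 2351 and 2053 under alpha3 siRNA, and 2117 and 2431 in mock cells (-0.23, adjusted p = 0.583). The UBE2C arrays did not overlap, although the difference was small. PTTG1, securin, the inhibitor of separase, was at -0.50, with 1880 and 3518 on the MT1-MMP siRNA arrays, and near-identical copies of PTTG1 may share its probe set.

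Of the roles as drawn here, the mitotic kinases and cytokinesis had the medians nearest 0, at -0.19 and -0.057. In the kinases 0 of 5 and in cytokinesis 0 of 2 had an unadjusted p under 0.05 with MT1-MMP siRNA against mock. Over all genes 7.66% were lower and 6.76% higher at that level. The kinase AURKB (-0.70) was placed with the chromosomal passengers. KIF23 (-0.63) and PRC1 (-0.68), which also act in cytokinesis, were placed with the kinesins and spindle assembly. Each of these had an unadjusted p under 0.05. AURKA, the kinase of spindle poles, had 948 and 877 with MT1-MMP siRNA, 2269 and 1493 under alpha3 siRNA, and 1102 and 1523 in mock cells (-0.49, SE 0.25, adjusted p = 0.400). PLK1, another master kinase of mitosis, was at -0.22 (95% interval -0.78 to 0.33), BUB1 at -0.19 and NEK2 at -0.11. Tested singly, a dimmer BUB1 probe set was at -0.79 (limma unadjusted p = 0.00888). TTK, which starts the spindle checkpoint, had 418 and 516 with MT1-MMP siRNA, 343 and 399 under alpha3 siRNA, and 421 and 581 in mock cells (-0.086, 95% interval -0.60 to 0.43, adjusted p = 0.894). ECT2, the exchange factor that starts furrowing, had 501 and 661 with MT1-MMP siRNA, 426 and 732 under alpha3 siRNA, and 719 and 498 in mock cells (-0.055, 95% interval -0.73 to 0.62, adjusted p = 0.952). RACGAP1, its partner in the central spindle, had 637 and 901 with MT1-MMP siRNA, 522 and 757 under alpha3 siRNA, and 821 and 761 in mock cells (-0.058, 95% interval -0.62 to 0.50, adjusted p = 0.939). The intervals show that these data do not exclude a fold change of the size of the median of the 47 genes for PLK1, TTK, ECT2 or RACGAP1. Whether the roles differ from each other was not tested.

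**Figure D3:**
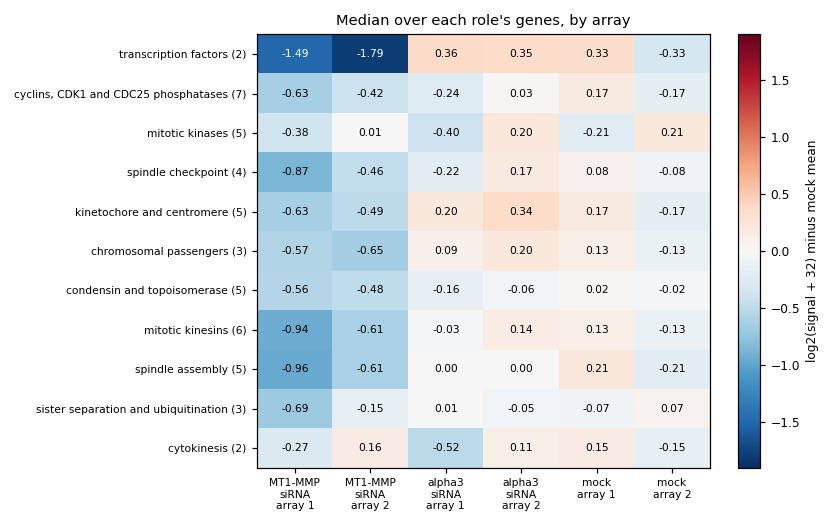
Median over the genes of each role on each array, as log2(signal + 32) minus the mock mean, with the number of genes in parentheses and blue for lower. On the MT1-MMP siRNA arrays the transcription factors stand at -1.49 and -1.79, the kinesins at -0.94 and -0.61, the kinases at -0.38 and 0.01, and cytokinesis at -0.27 and 0.16.

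The promoters of the lowest members are shown because these genes lay lower together and many late cell cycle promoters carry known elements. RefSeq windows of 300 bases (250 before to 50 after the start, GRCh38.p14) were matched by symbol for 39 of the 47 genes, with 52 windows in all. AURKA, BIRC5, BUB3, FOXM1, RACGAP1, TPX2, TTK and UBE2C were not matched. The 5 genes with the lowest fold changes with MT1-MMP siRNA against mock among genes with 1 window are printed 5′ to 3′ on the strand of the gene. Capitals mark CHR elements (TTTGAA or TTCGAA, bound by MuvB), CCAAT boxes (CCAAT, bound by NF-Y), E2F words (TTCCCGC or TTGGCGC or TTCGCGC or TTGCCGC) and forkhead words (TAAACA), each searched on both strands, and no word marked in these 5 windows overlaps another.
NCAPH (chr2:96335516-96335815, plus strand): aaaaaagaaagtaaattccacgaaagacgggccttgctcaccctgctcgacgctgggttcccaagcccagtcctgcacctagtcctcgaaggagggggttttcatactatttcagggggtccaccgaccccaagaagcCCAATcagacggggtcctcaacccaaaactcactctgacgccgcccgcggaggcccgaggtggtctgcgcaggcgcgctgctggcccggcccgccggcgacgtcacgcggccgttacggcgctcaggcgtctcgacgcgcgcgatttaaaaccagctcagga
MYBL2 (chr20:43666864-43667163, plus strand): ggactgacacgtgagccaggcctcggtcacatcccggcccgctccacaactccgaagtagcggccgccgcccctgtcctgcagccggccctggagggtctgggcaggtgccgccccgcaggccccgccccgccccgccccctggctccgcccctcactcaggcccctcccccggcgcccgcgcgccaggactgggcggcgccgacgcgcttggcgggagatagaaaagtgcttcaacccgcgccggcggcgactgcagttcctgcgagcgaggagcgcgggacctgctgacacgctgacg
CDC20 (chr1:43358731-43359030, plus strand): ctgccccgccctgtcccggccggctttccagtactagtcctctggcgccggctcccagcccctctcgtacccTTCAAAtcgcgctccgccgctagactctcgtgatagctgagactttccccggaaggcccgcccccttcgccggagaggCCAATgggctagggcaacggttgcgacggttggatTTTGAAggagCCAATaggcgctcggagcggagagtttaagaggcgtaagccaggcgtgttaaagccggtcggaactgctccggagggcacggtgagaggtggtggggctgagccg
CCNA2 (chr4:121823834-121824133, minus strand): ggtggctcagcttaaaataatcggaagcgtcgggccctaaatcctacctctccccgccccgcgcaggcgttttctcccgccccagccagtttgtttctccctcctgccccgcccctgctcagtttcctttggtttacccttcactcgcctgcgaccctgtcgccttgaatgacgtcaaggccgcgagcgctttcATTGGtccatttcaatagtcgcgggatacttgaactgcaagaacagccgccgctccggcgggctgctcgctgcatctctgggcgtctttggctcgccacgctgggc
KIF4A (chrX:70289854-70290153, plus strand): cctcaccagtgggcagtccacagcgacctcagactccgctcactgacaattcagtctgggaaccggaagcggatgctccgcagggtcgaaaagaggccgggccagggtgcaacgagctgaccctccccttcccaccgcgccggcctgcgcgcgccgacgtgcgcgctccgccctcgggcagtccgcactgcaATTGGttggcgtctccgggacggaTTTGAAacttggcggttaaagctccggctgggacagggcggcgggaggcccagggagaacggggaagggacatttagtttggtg
The CDC20 window held 2 CHR words and 2 CCAAT boxes, with the nearer CHR word 65 bases before the start and the nearer CCAAT box 55 bases before it. In the KIF4A window a CHR word lay 34 and a CCAAT box 58 bases before the start. The NCAPH and CCNA2 windows each held 1 CCAAT box, 112 and 56 bases before the start, and the MYBL2 window held none of the words. Only the exact words were searched. The CCNA2 window has cttgaa and the MYBL2 window ttggcggga, near forms of a CHR and an E2F word that were not counted. A window without a word may therefore still hold such an element. The 52 windows belong to the 39 matched genes, some of which have several, partly overlapping windows. Of the 52 windows, 59.6% held a CHR word, against 16.4% of all 35116 windows searched. A CCAAT box was in 71.2%, against 34.6%, and an E2F word in 28.8%, against 13%. Forkhead words were in 5.77% of the windows, against 12.3%. The 27 genes with a CHR word had a median log2 fold change of -0.49 with MT1-MMP siRNA against mock. The 12 matched genes without one of these exact words, CCNA2 among them, had -0.70. A match is a description of letters and not a bound site.

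**Figure D4:**
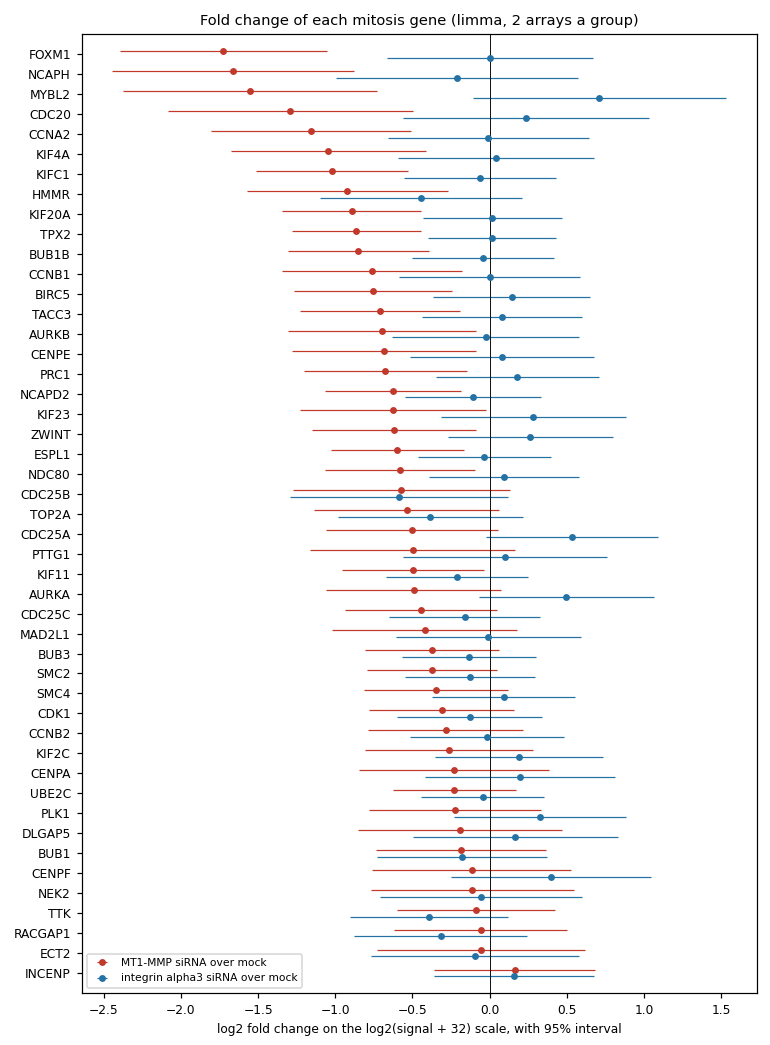
Log2 fold change of each mitosis gene with its 95% interval, for MT1-MMP siRNA over mock in red and alpha3 siRNA over mock in blue, ordered by the red values. Both contrasts share the 2 mock arrays. The red points run from -1.73 for FOXM1 to 0.16 for INCENP, and the blue ones from -0.58 for CDC25B to 0.71 for MYBL2.

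With alpha3 siRNA against mock, the mitosis genes showed no common direction. Their median log2 fold change was 0.0005, against -0.014 over all genes, and 23 of the 47 were below 0, against 52% of all genes. None passed the adjusted threshold in limma (0 of 47, against 0% of all genes lower and 0.0249% higher), and at an unadjusted p under 0.05 there were 0 lower and 0 higher, against 3.22% and 2.51% of all genes. Arrays did not overlap for 5 genes that were lower (against 18% of all genes) and for 4 that were higher (against 16.4%). FOXM1 was at 0.0022 (95% interval -0.67 to 0.67). The highest values were those of MYBL2 (0.71), CDC25A (0.54) and AURKA (0.50). The dimmer AURKA probe sets were at 0.028 and 0.17. CDC25A, the phosphatase that acts from G1 onward, had 113 and 158 with alpha3 siRNA and 76.0 and 89.2 in mock cells (adjusted p = 0.855), and its dimmer probe set went the other way, at -0.23. That probe set had 20.1 and 191.5 with alpha3 siRNA and 74.2 and 119.3 in mock cells, so its arrays overlapped. The signal of 20.1 lies under the filter level, so the size of this change depends on the offset. The lowest values were those of CDC25B (-0.58), HMMR (-0.45) and TTK (-0.39), none past the threshold (adjusted p from 0.863 to 0.893). CDC25B had 414 and 870 with alpha3 siRNA and 966 and 874 in mock cells, so 1 alpha3 siRNA array sat just under the mock arrays.

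Between the siRNAs, the mitosis genes lay lower with MT1-MMP siRNA than with alpha3 siRNA, with a median log2 difference of -0.55, against 0.022 over all genes, and 42 of the 47 below 0, against 48.1% of all genes. This contrast shares its MT1-MMP siRNA arrays with the first one, so it is no independent repeat of it. At an unadjusted p under 0.05, 23 genes were lower, against 11.7% of all genes, and 0 higher. Arrays did not overlap for 34 genes that were lower, against 25.9% of all genes, and for TTK, which was higher, against 28% of all genes. After MYBL2 and FOXM1 came CDC20 (-1.53, adjusted p = 0.0622), NCAPH (-1.45, adjusted p = 0.0677), CCNA2 (-1.15, adjusted p = 0.0733) and KIF4A (-1.09, adjusted p = 0.0770), none past the threshold. TPX2 (-0.88, adjusted p = 0.0543) and KIF20A (-0.91, adjusted p = 0.0566) had the lowest adjusted p-values of the genes that did not pass. AURKA, at -0.99, was lower here by more than against mock, and its mean signal was highest with alpha3 siRNA. The gap was smaller on its dimmer probe sets, at -0.39 and -0.66 here and -0.36 and -0.50 against mock. TTK (0.30), RACGAP1 (0.26), ECT2 (0.038), CDC25B (0.013) and INCENP (0.0056) were the 5 genes above 0. Both MT1-MMP siRNA arrays lay below all 4 other arrays for 28 of the 47 genes, against 17% of all genes.

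The arrays of a group differed from each other in these genes. Taking each gene against its mock mean, the median over the 47 genes was -0.63 and -0.46 on the MT1-MMP siRNA arrays, -0.096 and 0.16 on the alpha3 siRNA arrays, and 0.12 and -0.12 on the mock arrays, while the median over all genes stayed between -0.012 and 0.013. The MT1-MMP siRNA medians lay below those of the other 4 arrays, and the pooled SD between arrays of a group was 0.16. On the first MT1-MMP siRNA array 46 genes lay below their mock mean, and on the second 38 did. In that group 37 genes were lower on array 1, and 10 were lower on array 2, among them MYBL2, NCAPH, CENPE and AURKB. The spiked controls, given above, were also brighter on array 1 than on array 2 of that group. Without MT1-MMP siRNA replicate 1 the genes lower at an unadjusted p under 0.05 against mock numbered 11, and without mock replicate 1 they numbered 15, in place of 23. The share of all genes lower at that level was 3.65% and 3.7% in these fits, in place of 7.66%.

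**Figure D5:**
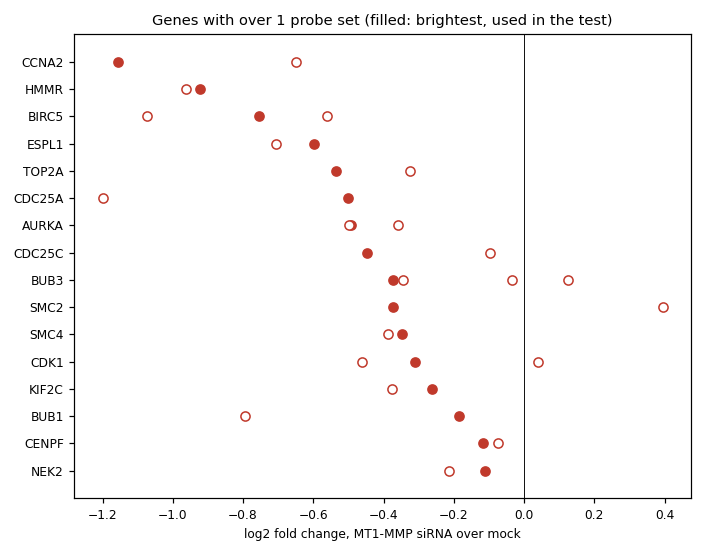
Log2 fold change with MT1-MMP siRNA over mock for each probe set above the filter, for the 16 genes with over 1 of them; the filled circle is the brightest, which entered the test. Most circles lie left of 0, and BUB3, SMC2 and CDK1 have a circle on each side.

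Different probe sets of a gene mostly pointed the same way. Of the 74 probe sets 68 passed the filter, and 64 of these were below 0 with MT1-MMP siRNA against mock. For 43 genes every probe set above the filter was below 0, but this counts genes with a single probe set, which cannot disagree. Of the 16 genes with over 1 probe set above the filter, 3 had probe sets of both signs in this contrast. Between the siRNAs 4 did. CDC25A lay at -0.50 and -1.20 and BUB1 at -0.19 and -0.79, so the brightest probe set gave the smaller change for both. Both MT1-MMP siRNA signals of the dimmer CDC25A probe set, 14.9 and 32.9, lie under the filter level. That probe set passed the filter through the other groups, so the size of its change depends on the offset.

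Other genes of the same machinery, not members of the set, were read from lists chosen with earlier results known. Of 44 further mitotic genes tested, 20 were lower at an unadjusted p under 0.05 with MT1-MMP siRNA against mock and 0 higher. Over all genes the shares were 7.66% and 6.76%. The 44 genes had a median of -0.43, with 40 below 0, and 0 passed the adjusted threshold. CDCA8, borealin, the passenger subunit that completes the complex of BIRC5, INCENP and AURKB, had 316 and 451 with MT1-MMP siRNA, 563 and 968 under alpha3 siRNA, and 823 and 760 in mock cells (-1.01, adjusted p = 0.208). OIP5, which helps load CENPA at centromeres, had 165 and 258 with MT1-MMP siRNA, 379 and 504 under alpha3 siRNA, and 425 and 427 in mock cells (-0.94, adjusted p = 0.185). The CDK1-inhibiting kinases diverged, with PKMYT1 at -0.92 (adjusted p = 0.193) and WEE1 at -0.064 (adjusted p = 0.920).

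The 10 genes tested of the anaphase-promoting complex and its regulators had a median of -0.33 against mock, with 9 below 0, against 49.7% of all genes. Both MT1-MMP siRNA arrays lay below both mock arrays for 5 of the 10 and above both for 0. Over all genes these shares were 25.3% and 24.6%. Of the 10 genes, 1 was lower at an unadjusted p under 0.05, close to the share over all genes (7.66%). That gene was UBE2S, the enzyme that lengthens the ubiquitin chains UBE2C begins, with 2714 and 3446 with MT1-MMP siRNA, 3860 and 5567 under alpha3 siRNA, and 5444 and 5128 in mock cells (-0.78, adjusted p = 0.193). FBXO5, the inhibitor EMI1, was at -0.40 (adjusted p = 0.471). Of 9 cohesin genes, 1 was lower at that level, also close to the 7.66% of all genes. It was WAPL, the cohesin releaser (-0.54, adjusted p = 0.312). NIPBL, the loader, was at -0.61 (adjusted p = 0.408). The NIPBL value rested on 1 array, with -0.17 when MT1-MMP siRNA replicate 1 was left out and -1.06 when replicate 2 was, and it was -0.12 with the mean of its probe sets. Of the 9 cohesin genes 7 were below 0, and the subunits RAD21 (0.21) and STAG1 (0.14) were above 0. Both MT1-MMP siRNA arrays lay below both mock arrays for 6 of the 9, against 25.3% of all genes, and above both for 0, against 24.6%.

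Of 11 listed genes of MuvB, DREAM and the E2F repressors, 8 were on the array and 6 were tested. The MuvB subunits among them serve activation as well as repression, as given above. Of the 6 genes, 1 passed the threshold, and it was higher with MT1-MMP siRNA than with alpha3 siRNA. Over all genes 0.82% passed as higher in that contrast. RBL2, the p130 pocket protein of DREAM, had 242 and 227 with MT1-MMP siRNA, 85.1 and 81.1 under alpha3 siRNA, and 112 and 123 in mock cells. The MT1-MMP siRNA arrays lay above the other 4. RBL2 rose by a log2 difference of 1.21 between the siRNAs (SE 0.20, adjusted p = 0.0329), and was at 0.84 against mock (SE 0.20, adjusted p = 0.165). The call between the siRNAs was lost on leaving out any 1 of the 6 arrays (adjusted p from 0.0523 to 0.240, differences from 1.17 to 1.25), with the mean of its probe sets (1.03, adjusted p = 0.0519), with only the 2 groups fitted (adjusted p = 0.0523) and with no filter (adjusted p = 0.0760). Of the other 5 genes of this list, RBBP4, a MuvB subunit that is also found in many chromatin complexes, was at -0.67 (adjusted p = 0.185), TFDP1, the partner of E2F factors, at -0.61 (adjusted p = 0.288), LIN37, a MuvB subunit, at 0.51 (adjusted p = 0.404), TFDP2 at 0.11 and E2F4 at -0.040.

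DNA replication genes, the set most alike in function, had a median of -0.80 over 29 genes with MT1-MMP siRNA against mock. Between the siRNAs the median was -0.89, and 6 passed the threshold, all 6 lower, against 0.572% of all genes. CDC45, a helicase cofactor, had 16.6 and 21.7 with MT1-MMP siRNA, 213 and 201 under alpha3 siRNA, and 260 and 145 in mock cells, a log2 difference of -2.22 between the siRNAs (adjusted p = 0.0232). Both MT1-MMP siRNA signals of CDC45 lie under the filter level of 47.5, so it passed the filter through the other groups and the size of its difference depends on the offset (-3.38 with an offset of 1 and -1.36 with 100). The licensing factor CDC6 (-1.68), the reductase subunit RRM2 (-1.71) and the polymerase subunit POLA1 (-1.34) also fell in that contrast (adjusted p from 0.0232 to 0.0287). All 6 calls were lost on leaving out either one of the MT1-MMP siRNA arrays, where 0 of the 8045 genes passed in limma (6.13% and 10.4% were lower at an unadjusted p under 0.05), and the 4 named genes then had adjusted p-values from 0.0669 to 0.165. Without alpha3 siRNA replicate 2 these 4 calls were lost (adjusted p from 0.0786 to 0.0976), and without alpha3 siRNA replicate 1 only that of CDC45 held (adjusted p = 0.0492, against 0.0531 to 0.0569). With no filter, RRM2 (adjusted p = 0.0529) and POLA1 (adjusted p = 0.0662) were lost. RFC5, a subunit of the clamp loader, was the 1 replication gene higher at an unadjusted p under 0.05, with 556 and 694 with MT1-MMP siRNA, 305 and 329 under alpha3 siRNA, and 340 and 351 in mock cells (0.79 against mock, adjusted p = 0.176, and 0.91 between the siRNAs, adjusted p = 0.0566). Its MT1-MMP siRNA arrays lay above the other 4, and it was named after its values were seen. At an unadjusted p under 0.05, 23 of the 29 replication genes and 23 of the 47 mitosis genes were lower against mock. The share over all genes was 7.66%, and the difference between the sets was not tested. In bulk RNA, fewer cells in G2 and mitosis and less RNA of these genes per cell cannot be told apart.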

How the data were processed

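Total RNA of HT1080 cells was measured on 6 single-channel arrays, 2 per group, and array numbers come from the sample titles. The authors deposited 1 intensity per probe set on a linear scale. All arrays share a trimmed mean of 250.1 (middle 96%). The summarisation software is not given in the sources used here, and the number of arrays limits the precision.

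Probe sets were named through the supplied platform annotation (19065 with 1 symbol, 1043 with several, 2107 with none, 68 controls); 1 further probe set names CENPA together with another gene and was left out. A floor of 1 was applied before log2(value + 32). Dim probe sets, those averaging under the 40th percentile (signal 47.5), were dropped and the brightest per gene was used, which gave 8045 genes. limma 3.58.1 in R 4.3.3 fitted the 3 groups together (lmFit and trended eBayes, 3 residual and 5.35 prior degrees of freedom), with Benjamini-Hochberg adjustment over all genes. A gene was called at an adjusted p under 0.05. The fit was tested on simulated data. Figures were drawn with matplotlib 3.10.9.

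The members, lists, roles, motifs and the rule for named genes were chosen with earlier results of these data known. The rule names FOXM1, MYBL2, the largest and smallest change of each role, called members and members whose probe sets differ in sign; for alpha3 siRNA against mock, FOXM1, MYBL2 and the 3 largest changes each way; for the other lists, called genes (up to 4), or else the 2 largest changes whose arrays do not overlap. Further genes were named after their values were seen. Of the alternatives, 12 were tried: quantile normalization, scaling to 1 shared 75th percentile, an offset of 1 or of 100, dropping the filter or raising it to the 60th percentile, averaging probe sets per gene, testing probe sets singly, no intensity trend, only the 2 groups compared, the array number as a block, and leaving out each array. The deviations of same-numbered arrays correlated at 0.13, -0.18 and -0.18 between the groups, which gave no sign of pairing by number. With 2 arrays per group this cannot exclude pairing.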

Additional observations from a re-analysis of the deposited data

Results flagged for a closer look

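The 18 spiked hybridisation controls, which belong to no gene comparison, gave a higher signal with MT1-MMP siRNA. The median of the 2 arrays' folds over the mock mean was 1.8, with 2.30 and 1.29 on the single arrays, against 0.812 and 0.841 with alpha3 siRNA and 0.927 and 1.07 in mock cells. Groups of 2 arrays are too small to look for outlying samples.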

How the results depend on the processing

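The median of the 47 genes with MT1-MMP siRNA against mock lay between -0.60 and -0.47 under the alternatives that kept all arrays, and between -0.63 and -0.43 when 1 array was left out. The count of genes called over the whole array was small and moved in this contrast from 0 to 1 (quantile normalization), 3 (offset of 1), 6 (offset of 100), 2 (mean of probe sets), 2 (every probe set), 7 (only the 2 groups) and 11 (replicate block), and from 0 to 8 when 1 array was left out; 0 of the 47 genes were called in any of them. With alpha3 siRNA against mock it was 2, against 1 with quantile normalization, an offset of 100, no filter, every probe set or only the 2 groups, 0 with an offset of 1 or the filter at the 60th percentile, 4 with the replicate block, and 0 to 9 when 1 array was left out. Between the siRNAs it was 112, against 69 (offset of 1), 22 (no filter), 178 (filter at the 60th percentile), 72 (no intensity trend), 114 (replicate block) and 0 to 83 when 1 array was left out. Of the 47 genes, 2 were called there, against 0 with no filter, 1 without the trend, 4 with the filter at the 60th percentile (FOXM1, MYBL2, TPX2 and KIF20A) and 0 to 2 when 1 array was left out. Members lower at an unadjusted p under 0.05 in limma, a count chosen after seeing the data, were compared with all arrays kept. With MT1-MMP siRNA against mock they numbered 21 to 25, against 5.87% to 9.58% of all genes. Between the siRNAs they numbered 20 to 25, against 8.85% to 14.6%. The lowest counts, 21 and 20, came from the filter at the 60th percentile, which kept 43 of the 47 genes. With alpha3 siRNA against mock the count was 0, against 2.68% to 3.41%. On leaving out 1 array the medians ran from -0.71 to -0.37 between the siRNAs and from -0.097 to 0.16 with alpha3 siRNA against mock.

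The replicate block, that is the array number, called none of the 47 genes that the fit without it did not call, and left MYBL2 against mock at an adjusted p of 0.0515; arrays share only this number. Signs turned for small changes. Against mock these were SMC2 with the mean of probe sets (0.011), and on leaving out 1 array CENPF (-0.49 to 0.26), DLGAP5 (-0.58 to 0.19), ECT2 (-0.31 to 0.20), TTK (-0.30 to 0.13) and RACGAP1 (-0.30 to 0.18). Between the siRNAs they were INCENP (-0.065 with quantile normalization, -0.012 with a common 75th percentile, and -0.15 and -0.077 on leaving out 1 array), BUB3 (0.019), CDC25C (0.021) and SMC2 (0.26) with the mean of probe sets, and on leaving out 1 array DLGAP5 (-0.74 to 0.024) and ECT2 (-0.33 to 0.41). With alpha3 siRNA against mock FOXM1 ran from -0.35 to 0.35 on leaving out 1 array. CDC45 passed the threshold against mock with an offset of 1 (-3.29) and with the replicate block. The causes were not tested. Leaving out 1 array also leaves fewer residual degrees of freedom, and the part of this was not tested either.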
